A study of Mus musculus with 6 samples.

Results

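The MHC class II pathway was examined in N9 microglia, an immortalized cell line derived from mouse brain, through 9 genes chosen by gene symbol out of the 54532 genes in the count table. These were the transactivator Ciita, the invariant chain Cd74, the antigen-binding chains H2-Aa, H2-Ab1 and H2-Eb1, the peptide editor chains H2-DMa, H2-DMb1 and H2-DMb2, and H2-Oa, a chain of the inhibitor of the editor. RNA was sequenced from 3 samples of untreated control cells and from 3 samples of cells given lipopolysaccharide (LPS), the endotoxin of gram-negative bacteria, at 1 µg/ml for 6 h. All 6 libraries come from this 1 cell line and the labels name no other treatment. The labels number the replicates without saying that they were separate cultures, so p-values measure only the spread between these samples. Total counts lay between 16589508 and 17956772 in control libraries and between 16363767 and 17015639 in LPS libraries, so that 3 counts correspond to between 0.161 and 0.19 CPM, the usual scale of counts relative to library size.

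MHC class II molecules are pairs of an alpha and a beta chain that carry peptides from the endosomal pathway to the cell surface, where CD4 T cells read them. The chains assemble around the invariant chain, which fills their groove until lysosomal proteases trim it to a short peptide, and H2-DM then exchanges that peptide for antigen while H2-O holds H2-DM back. Transcription of the alpha and beta chains depends on Ciita, and that of the invariant chain and H2-DM can be raised by it. Ciita is a coactivator without DNA binding of its own that docks on factors bound to the S, X and Y boxes of their promoters and is classically induced by interferon-gamma, in part through Irf1. Microglia at rest hold little MHC class II, and activation can raise it.

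Promoter stretches are shown for 5 of the 6 members in which a Y box core was found. The X and Y boxes are where Ciita docks, and the members that carry them differed widely in level. RefSeq windows on GRCm38.p6, from 250 bases before to 50 bases after a start site, were used for 6 of the 9 members. Those of Ciita, Cd74 and H2-Ab1 were not in the copy used here. Each stretch is 90 bases of chromosome 17, read 5′ to 3′ on the strand of the gene, with the X core GCAAC and the Y core ATTGG in capitals. The stretch of H2-Aa is chr17:34287852-34287941 on the minus strand. On the plus strand, H2-Eb1 is chr17:34305738-34305827, H2-Oa is chr17:34092266-34092355, H2-DMb1 is chr17:34153060-34153149 and H2-DMb2 is chr17:34145089-34145178.
H2-Aa: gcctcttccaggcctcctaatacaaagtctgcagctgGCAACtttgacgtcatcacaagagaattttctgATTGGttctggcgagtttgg
H2-Eb1: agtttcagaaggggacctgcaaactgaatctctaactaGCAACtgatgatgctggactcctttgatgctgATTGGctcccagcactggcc
H2-Oa: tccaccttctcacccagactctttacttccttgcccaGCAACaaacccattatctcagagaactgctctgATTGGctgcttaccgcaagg
H2-DMb1: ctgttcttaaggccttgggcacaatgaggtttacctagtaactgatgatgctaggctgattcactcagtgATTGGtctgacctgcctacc
H2-DMb2: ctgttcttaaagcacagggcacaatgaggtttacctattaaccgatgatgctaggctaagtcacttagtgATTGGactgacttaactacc

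H2-Aa, H2-Eb1 and H2-Oa held the X core before the Y core, with 33, 32 and 33 bases between their first letters. Searched on both strands, GCAAC lies in 35.2% and ATTGG (an inverted CCAAT box) in 37.4% of the 32851 RefSeq windows of this length, so either core alone is common. The X core followed by the Y core on the strand of the gene, 20 to 45 bases apart, was found in 0.6% of all windows and in 3 of the 7 windows of members, a spacing chosen after these sequences were seen. H2-DMb1 and H2-DMb2 held the Y core without the exact letters GCAAC in this window, which does not show that an X box is missing. The promoter windows of these paralogs were identical at 209 of 271 aligned positions (77.1%). No RefSeq start used here was the same base as the start in the count table. The RefSeq start lay 4, 39, 119 and 1942 bases inside the counted gene for H2-Aa, H2-Oa, H2-DMb1 and H2-DMb2, so that the Y cores of H2-DMb1 and H2-DMb2 fall within the counted genes, and it lay before the counted gene for H2-Eb1 and, by several kilobases, for H2-DMa. In the 2 windows of H2-DMa, a Y core was found on the strand of the gene, with its first base at -198 from a start site. The X core was found there on the other strand alone. Neither window held the X core before the Y core, and they are not shown, though both count among the 7 windows of members. Because they lie kilobases before the counted gene, the sequence beside the counted start of H2-DMa was not searched. For H2-DMa too, an X box is not shown to be missing.

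**Figure D1:**
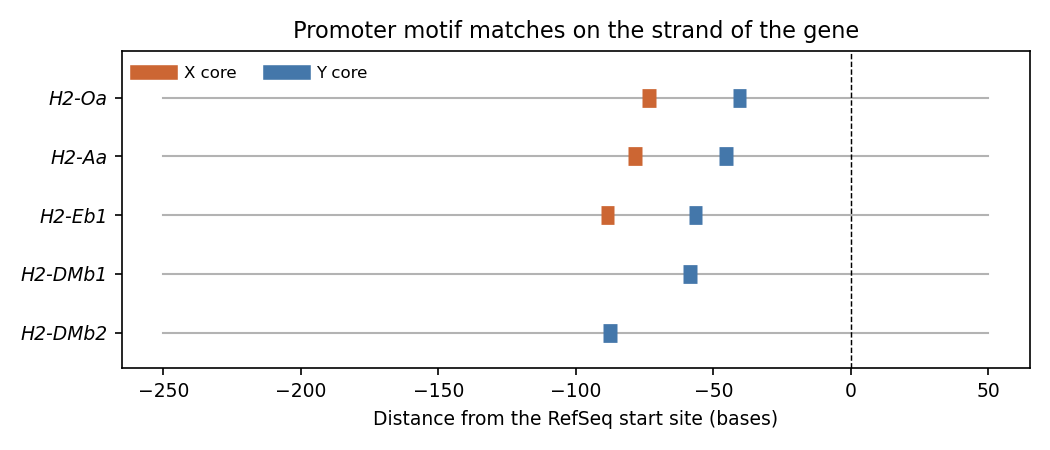
Position of the X core (orange) and the Y core (blue) on the strand of the gene, in bases from the RefSeq start site (dashed line), for 5 members. H2-Oa, H2-Aa and H2-Eb1 hold both cores between 91 and 43 bases before the start, and in H2-DMb1 and H2-DMb2 the exact letters of the Y core alone were found.

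Read per length, the pathway was uneven in N9 microglia. Levels between genes are given as RPKM, reads scaled to library size and per kilobase of gene length. Cd74 stood at 289 RPKM over the 6 libraries, rank 137 of 22046 protein-coding genes in the table, and no other member exceeded 5.6 RPKM in any library. H2-DMb1 followed at 4.9 RPKM, ahead of H2-DMa at 1.65, H2-Eb1 at 1.06 and H2-DMb2 at 0.886. H2-Oa lay at 0.127, H2-Ab1 at 0.0357, H2-Aa at 0.0209 and Ciita at 0.00724 RPKM. Cd74 and H2-DMb1 did not overlap their neighbours in this order in any library, whereas H2-DMa, H2-Eb1 and H2-DMb2 overlapped each other and so did H2-Oa, H2-Ab1, H2-Aa and Ciita. Per length, Cd74 exceeded the sum of H2-Aa, H2-Ab1 and H2-Eb1 by 247 ± 63.4 times in control and by 291 ± 72.9 times in LPS libraries (SD, n = 3), and the libraries of the groups overlapped.

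**Figure D2:**
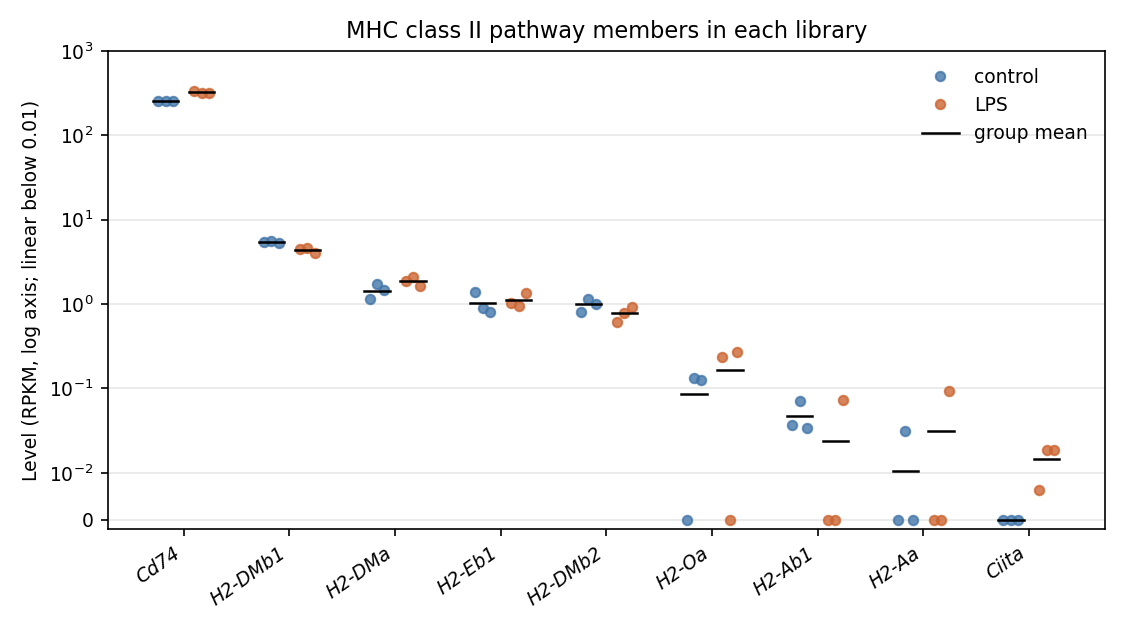
Level of each member in each library in RPKM, on a log axis that is linear below 0.01, for control (blue) and LPS (orange) libraries, with group means as bars. Cd74 lies near 289 RPKM, the editor chains and H2-Eb1 near 1 to 5, and H2-Oa, H2-Ab1, H2-Aa and Ciita near 0 in both groups.

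The question of the comparison was how the transcriptome of N9 microglia differs after LPS. Counts were tested with edgeR's quasi-likelihood test, and its filter on low counts passed 5 members, namely Cd74, H2-Eb1, H2-DMa, H2-DMb1 and H2-DMb2. Of these, 1 had an adjusted p under 0.05, where 34.3% of the 12296 genes tested did (18.7% higher, 15.7% lower). That member, Cd74, was higher with LPS. None of the 5 was lower (0 in edgeR at an unadjusted p under 0.05, 0 in DESeq2), and none was a DEG, which takes an adjusted p under 0.05 with a log2 fold change beyond 1.5 either way (0 in edgeR at an unadjusted p under 0.05, 0 in DESeq2), where 2.65% of the genes tested were. The LPS libraries did not overlap the control libraries for 3 of the 5, against 45.3% of the genes tested. Cd74 and H2-DMa were higher in this sense (23.7% of the genes tested) and H2-DMb1 was lower (21.5%).

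Cd74 (ENSMUSG00000024610), on chromosome 18 of mm10 from 60803848 to 60812646, encodes the invariant chain, which is also a cell surface receptor for the cytokine Mif. It had 5954, 6085 and 6468 counts without LPS and 7777, 7670 and 7476 with LPS. All LPS libraries lay above all control libraries. The level rose from 346 ± 1.63 to 471 ± 19.2 CPM (SD, n = 3), a 1.36-fold change with a 95% confidence interval of 1.28 to 1.45. The log2 fold change was 0.44 (standard error, SE, 0.04, edgeR adjusted p = 5.96e-07). Leaving out any 1 library kept it within 0.41 to 0.47. In RNA of whole cultures, more cells with a transcript and more transcript per cell cannot be told apart.

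The antigen-binding chains were almost without reads. H2-Aa (ENSMUSG00000036594), the alpha chain of I-A, lies on chromosome 17 from 34282744 to 34287827 and had 0, 1 and 0 counts without LPS and 0, 0 and 3 with LPS. H2-Ab1 (ENSMUSG00000073421), its beta chain, from 34263209 to 34269418, had 1, 2 and 1 counts against 0, 0 and 2. Both groups were at or under 3 counts in every library for both genes, so no fold change is given and no difference was detectable at this depth. H2-Eb1 (ENSMUSG00000060586), the beta chain of I-E, from 34305877 to 34316199, was the one chain above that floor. It had 27, 18 and 17 counts without LPS and 20, 19 and 27 with LPS, and the groups overlapped. Its level was 1.17 ± 0.355 CPM in control and 1.36 ± 0.254 CPM in LPS libraries (SD, n = 3). The log2 fold change of 0.22 had a 95% confidence interval of -0.49 to 0.93 (edgeR adjusted p = 0.661). Of the beta chain outside the list of members, H2-Eb2, a single read was counted over all 6 libraries, in control replicate 2.

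The chains of the peptide editor H2-DM were counted in every library. H2-DMa (ENSMUSG00000037649), the alpha chain, spans 34135182 to 34139101 of chromosome 17. It had 31, 48 and 43 counts without LPS and 50, 58 and 46 with LPS, and on the CPM scale the LPS libraries lay above the control libraries by a narrow margin, with 2.8 CPM in the lowest LPS library and 2.72 CPM in the highest control library. Its log2 fold change was 0.47, close to that of Cd74, but with a 95% confidence interval of -0.03 to 0.97 (edgeR adjusted p = 0.142). H2-DMb1 (ENSMUSG00000079547), a beta chain, from 34153072 to 34160230, had 134, 142 and 140 counts without LPS and 108, 118 and 101 with LPS. All LPS libraries lay below all control libraries, with 6.72 ± 0.532 against 7.79 ± 0.26 CPM (SD, n = 3). The log2 fold change of -0.21 had a 95% confidence interval of -0.5 to 0.07 and did not pass the test (edgeR adjusted p = 0.245).

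H2-DMb2 (ENSMUSG00000037548), the second beta chain, lies between H2-DMa and H2-DMb1 from 34143307 to 34151553. It had 23, 34 and 31 counts without LPS and 17, 23 and 27 with LPS, and the groups overlapped. Its log2 fold change of -0.26 had a 95% confidence interval of -0.9 to 0.39 (edgeR adjusted p = 0.561). The beta chain genes are close copies. Of the 50-base windows in the GENCODE transcripts of H2-DMb1, 22.7% also occur in those of H2-DMb2, and 21.2% in the other direction, so the counting could divide or drop reads of either gene. Counted as 1 gene, they had a log2 fold change of -0.22 (SE 0.12, edgeR adjusted p = 0.181). The ratio of H2-DMb1 to H2-DMa per length, examined after the values were seen, was 4.78, 3.27 and 3.6 without LPS and 2.39, 2.25 and 2.43 with LPS, without overlap.

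H2-Oa (ENSMUSG00000024334), the alpha chain of the inhibitor H2-O, spans 34092340 to 34095234 of chromosome 17. It had 0, 3 and 3 counts without LPS and 5, 0 and 6 with LPS, so that the groups overlapped (two-sided exact permutation test, p = 0.5). H2-Ob, the beta chain of H2-O, had 1 read in the control libraries and 2 in the LPS libraries.

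Ciita (ENSMUSG00000022504) spans 10480059 to 10528418 of chromosome 16. It had 0 counts in each control library and 1, 3 and 3 counts in LPS replicates 1, 2 and 3. All LPS libraries lay above all control libraries, which gives p = 0.1 in a two-sided exact permutation test, the smallest that 3 libraries against 3 allow. All libraries were at or under 3 counts, and Ciita was below the filter, so no fold change is given. Without the filter on low counts, edgeR gave Ciita an adjusted p of 0.119. Dexi, a gene on the opposite strand that had 102 to 181 counts per library, overlaps Ciita from 10502531 on. The strand setting of the counting is not given in the sources used here, so reads of Ciita and Dexi in the overlap may not have been told apart.

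The lists of pathway genes hold 51 genes that are not members, of which 44 were tested. Of these, 19 were higher with LPS and 7 were lower, where 18.7% of all genes tested were higher and 15.7% lower. The 19 include Prdm1 and Socs1, which passed the filter on low counts only through the LPS libraries, in which they were high. The 19 are therefore not read against the share of 18.7%. Among the 7 tested promoter-binding factors, with a median log2 fold change of -0.13 where the median of all genes tested was 0, 1 rose, 1 fell and 5 did not pass the test. The subunits of the X box factor RFX, Rfx5, Rfxank and Rfxap, had log2 fold changes of 0.21, -0.14 and 0.10 (edgeR adjusted p = 0.327, 0.579 and 0.478). Creb1, a cAMP response factor that binds beside RFX, fell from 39 ± 2.71 to 30.9 ± 2.56 CPM (SD, n = 3; log2 fold change -0.34, edgeR adjusted p = 0.0039). Of the subunits of the Y box factor NF-Y, Nfyc was called at a log2 fold change of 0.14 (edgeR adjusted p = 0.0468), a call that 11 of 17 alternative settings lost, whereas Nfya and Nfyb stood at -0.13 and -0.22 (edgeR adjusted p = 0.0556 and 0.0983). Nfya passed the test as lower in 6 of the 17 settings and Nfyb in 1.

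The interferon-gamma relay to Ciita had no ligand transcript, since Ifng was at 0 in all 6 libraries. Of its 10 tested genes, 7 rose and 2 fell (18.7% and 15.7% over all genes tested), with a median log2 fold change of 0.39. The 7 include Usf1, at a log2 fold change of 0.23 (edgeR adjusted p = 0.0293), which was not called by DESeq2 (adjusted p = 0.0925), with plain library totals, or without control replicate 2, control replicate 3 or LPS replicate 2. Irf1, which acts at an interferon-inducible promoter of Ciita, had 171, 191 and 225 counts against 441, 438 and 435, a log2 fold change of 1.30 (SE 0.10, edgeR adjusted p = 5.46e-08). All LPS libraries lay above all control libraries. The receptor chains went apart, with Ifngr2 at 0.56 (edgeR adjusted p = 2.56e-07) and Ifngr1 at -0.29 (edgeR adjusted p = 0.0258, not called by DESeq2, at 0.079, nor without control replicate 1, LPS replicate 1 or LPS replicate 2). Spi1, the myeloid factor PU.1, rose by 0.58 on the log2 scale (edgeR adjusted p = 5.43e-08), and Irf8, its partner in myeloid cells, fell by 0.41 on the log2 scale (edgeR adjusted p = 6.63e-05).

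Among genes known to repress Ciita or to restrain its induction, 4 of 6 tested rose and the other two did not pass the test, where 18.7% of all genes tested were higher. Of the 4, Prdm1 and Socs1 passed the filter on low counts only through the LPS libraries, in which they were high, so the count is not read against that share. Prdm1, the repressor Blimp-1, had 3, 4 and 2 counts without LPS and 22, 29 and 30 with LPS (log2 fold change 3.25, edgeR adjusted p = 3.64e-05). Socs1, which blocks signalling from the interferon-gamma receptor, had 5, 8 and 6 counts against 30, 27 and 34 (log2 fold change 2.37, edgeR adjusted p = 1.28e-04). Socs3, a feedback inhibitor of other cytokine receptors, rose from 39.2 ± 0.389 to 165 ± 5.07 CPM (SD, n = 3; log2 fold change 2.08, edgeR adjusted p = 8.21e-14). These 3 genes were DEG, and in each the groups were apart in every library. Bcl6 rose by 0.29 on the log2 scale (edgeR adjusted p = 0.0016), and Il10 was below the filter with 0 to 5 counts.

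**Figure D3:**
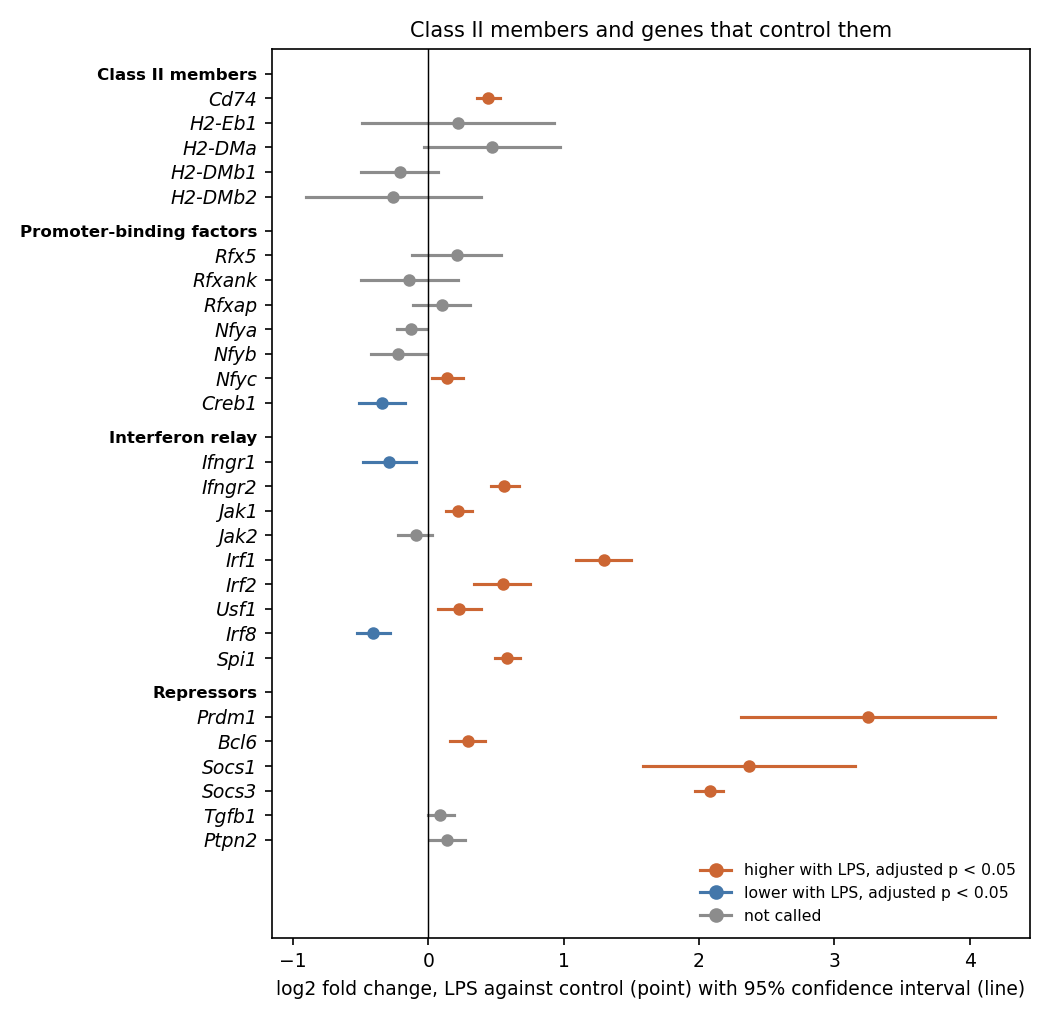
Log2 fold change of LPS against control (points) with its 95% confidence interval (lines) for the tested class II members and for genes that control them, 1 tested gene of the interferon relay left out, orange where higher and blue where lower at an edgeR adjusted p under 0.05. Cd74 at 0.44 is the one member past the test, while Irf1 at 1.30, Prdm1 at 3.25, Socs1 at 2.37 and Socs3 at 2.08 lie further out.

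All 10 genes listed for lysosomal processing of antigen and the invariant chain were tested. Of these, 4 rose, 2 fell and 4 did not pass the test, with a median log2 fold change of 0.09. Over all genes tested, 18.7% were higher and 15.7% lower. Ctss, the protease that makes the last cuts in the invariant chain of many antigen-presenting cells, stood at 241 ± 5.92 CPM in control and 245 ± 6.75 CPM in LPS libraries (SD, n = 3), a log2 fold change of 0.02 with a lower limit of -0.07 (edgeR adjusted p = 0.706). Lgmn, an asparaginyl endopeptidase that starts such cuts, fell from 395 ± 4.95 to 288 ± 11.1 CPM (log2 fold change -0.45, edgeR adjusted p = 6.09e-07). Sppl2a, which clears the membrane stub of the invariant chain, rose from 87.3 ± 1.75 to 118 ± 1.93 CPM (log2 fold change 0.43, edgeR adjusted p = 2.11e-06). Ctsz rose by 0.44 on the log2 scale (edgeR adjusted p = 2.9e-07). Ifi30, the thiol reductase of the endosome, had a log2 fold change of 0.03 (edgeR adjusted p = 0.682). Of the 7 tested trafficking genes, 2 rose and 1 fell (18.7% and 15.7% over all genes tested). The calls of the tetraspanins Cd63 (log2 fold change 0.12), Cd82 (0.23) and Cd9 (-0.10) were lost in 8, 3 and 4 of 17 settings, for each gene including leaving out a single library. March8, a ubiquitin ligase for class II chains, had a log2 fold change of -0.01 (edgeR adjusted p = 0.942), and its relative March1 was below the filter with 0 to 4 counts.

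As a receptor for Mif, the invariant chain works with partners in the membrane, and these differed in direction. Cd44, the coreceptor that passes the signal on, rose from 721 ± 15.9 to 1258 ± 30 CPM (SD, n = 3). Its log2 fold change was 0.80 (SE 0.03, edgeR adjusted p = 6.4e-11). Cxcr4, a chemokine receptor that forms complexes with the invariant chain, had 1125, 1179 and 1239 counts without LPS and 710, 650 and 604 with LPS, a log2 fold change of -0.71 (SE 0.07, edgeR adjusted p = 1.02e-06). In both genes the groups were apart in every library. Mif itself, at 603 ± 21.1 CPM in control and 646 ± 25.7 CPM in LPS libraries, did not pass the test (log2 fold change 0.10, edgeR adjusted p = 0.0728).

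**Figure D4:**
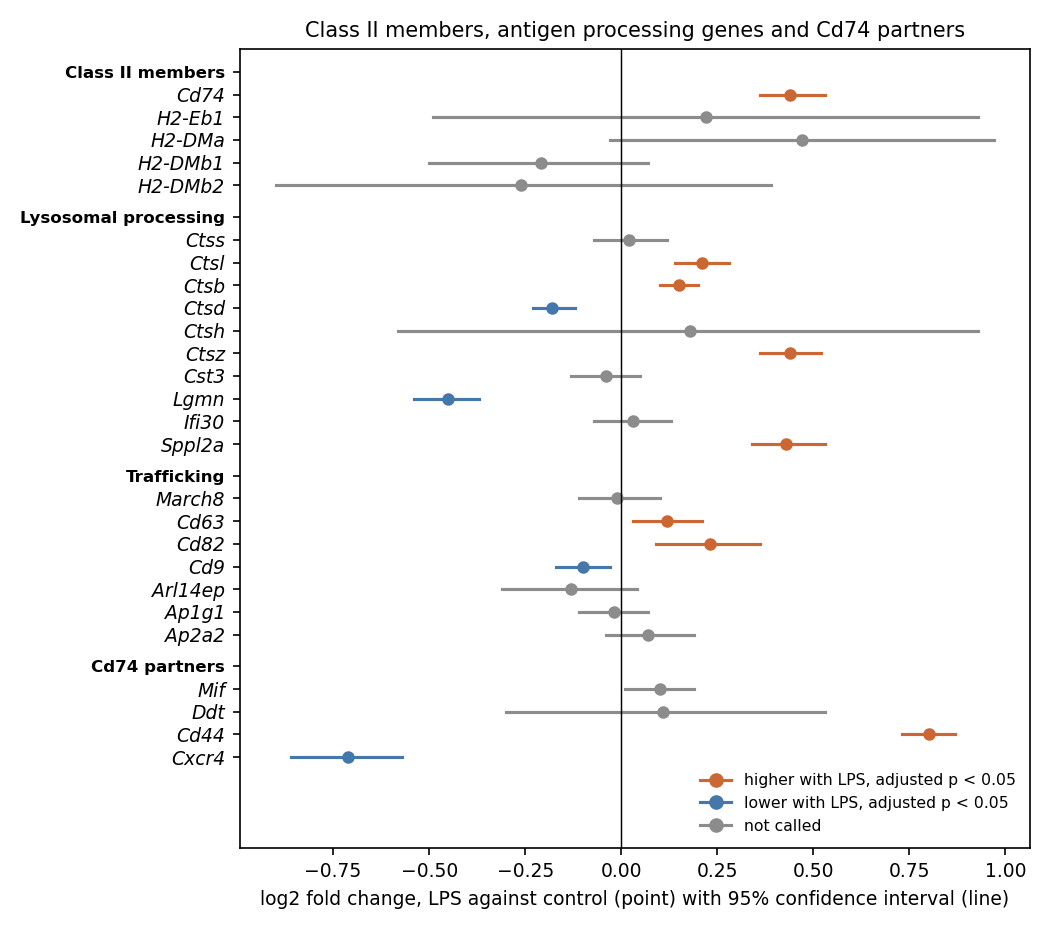
Log2 fold change of LPS against control (points) with its 95% confidence interval (lines) for the tested class II members, lysosomal processing genes, trafficking genes and partners of Cd74, orange where higher and blue where lower at an edgeR adjusted p under 0.05. Cd44 at 0.80 and Cxcr4 at -0.71 lie at the ends, and Ctss at 0.02 is not called.

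By position, 7 of the 9 members lie in 224 kb of chromosome 17, from the start of H2-Oa at 34092340 to the end of H2-Eb1 at 34316199. Within these limits the table holds 11 other genes, of which 5 were tested, and all 5 were higher with LPS, where 18.7% of all genes tested were. Tap1, a subunit of the peptide transporter for MHC class I, had 420, 456 and 368 counts without LPS and 1332, 1343 and 1232 with LPS (log2 fold change 1.78, SE 0.08, edgeR adjusted p = 3.51e-10). Tap2, the other subunit, stood at 1.04 (SE 0.09, edgeR adjusted p = 3.99e-07). The immunoproteasome subunits Psmb9 and Psmb8 stood at 0.72 and 0.38 (edgeR adjusted p = 3.66e-04 and 6.01e-04), and Brd2, a bromodomain protein that binds acetylated histones, at 0.51 (edgeR adjusted p = 6.54e-08). Among the members in the same stretch, none of the 4 tested was called (0 in edgeR at an unadjusted p under 0.05, 0 in DESeq2). The lower 95% confidence limit of Tap1, 1.60, was above the upper limits of all 4 members, which were 0.97 for H2-DMa, 0.93 for H2-Eb1, 0.39 for H2-DMb2 and 0.07 for H2-DMb1. That of Tap2, 0.85, was above the limits of H2-DMb1 and H2-DMb2 and below those of H2-DMa and H2-Eb1. The lower limits of Psmb9, Psmb8 and Brd2, 0.45, 0.23 and 0.43, were below the upper limits of H2-DMa and H2-Eb1. The 4 tested members also had fewer reads, with mean counts of 21.3 to 124 against 269 to 6435 for the 5 other genes. A change of the same size was therefore harder to detect in the members. The differences between genes were not tested. Reads in the short overlap of Psmb9 and Tap1, which lie on opposite strands, may not have been told apart.

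**Figure D5:**
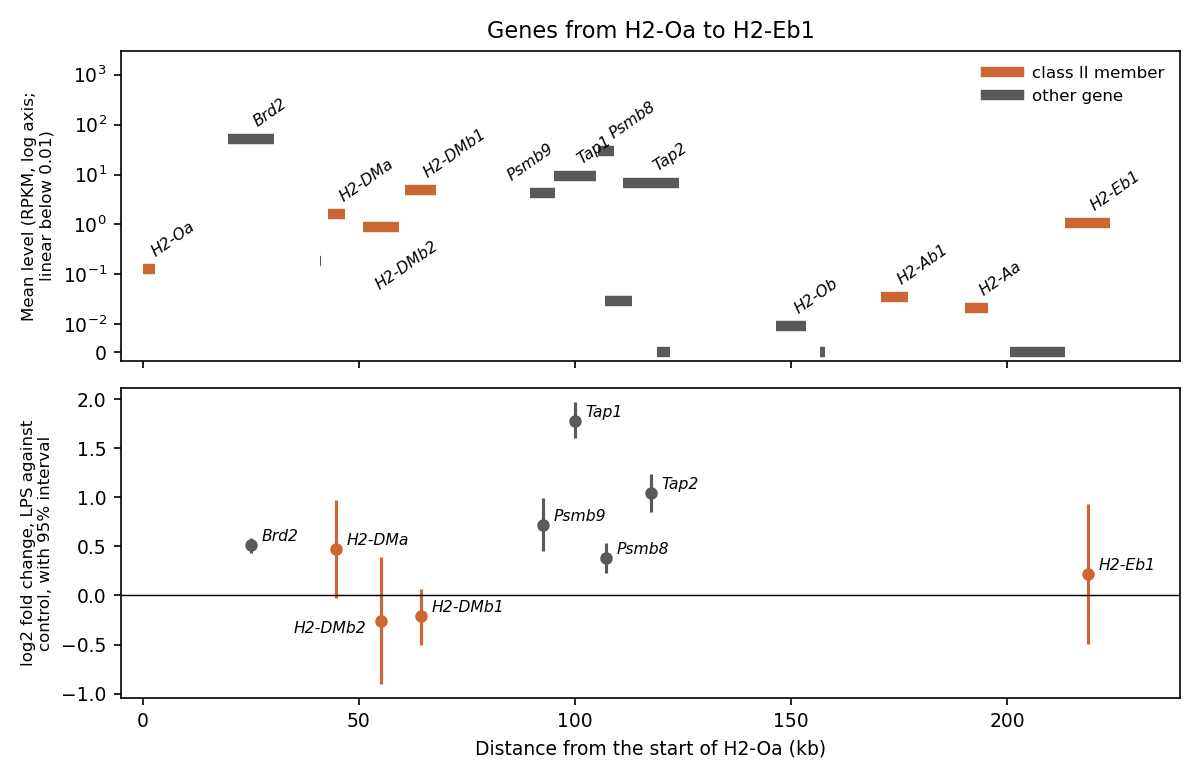
Genes from H2-Oa to H2-Eb1 by distance from the start of H2-Oa in kb, with class II members in orange and other genes in grey: mean level in RPKM above (log axis, linear below 0.01), and log2 fold change of LPS against control with its 95% confidence interval below. Tap1, Tap2, Psmb9, Psmb8 and Brd2 lie above 0, and the intervals of the 4 tested members include 0.

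Across the 6 libraries, the genes whose level followed Cd74 most closely were B2m, Anxa5, March5, Plscr1 and Rsl1d1, with Pearson's r of log2 CPM from 0.999 to 0.9979 over 10458 genes whose mean was 50 counts or more. These libraries form 2 groups, and 1540 of the genes had r over 0.9, so the order is a description. B2m, the light chain of MHC class I, rose from 498 ± 2.2 to 689 ± 38.4 CPM (SD, n = 3). Its log2 fold change was 0.47 (SE 0.04, edgeR adjusted p = 4.45e-07), where Cd74 stood at 0.44. In both genes LPS replicate 1 was the highest and LPS replicate 3 the lowest of the LPS libraries. Anxa5, a phospholipid-binding annexin, stood at 0.64 and Plscr1, a scramblase induced by interferon, at 0.91.

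The label of the cells was set against marker lists. Of 15 microglia and macrophage markers, Csf1r stood at 431 ± 14.6 CPM and Cd68 at 623 ± 22.1 CPM in control libraries (SD, n = 3), whereas P2ry12, a marker of resting microglia, had 3 to 6 counts and Sall1, a microglial identity factor, at most 1 count in a library. The 10 B cell markers summed to between 1.02 and 1.53 CPM in control and between 0.912 and 1.77 CPM in LPS libraries, with Ms4a1 and Fcer2a at 0 throughout. The 10 dendritic cell markers summed to between 7.53 and 8.4 CPM in control and between 18.2 and 21.6 CPM in LPS libraries, with Clec9a, Ccr7, Siglech and Cd8a at 0 throughout and Xcr1, a chemokine receptor, at 2.42 ± 0.692 CPM in control and 14.4 ± 1.19 CPM in LPS libraries (SD, n = 3), and 8 B cell and 6 dendritic cell markers had at most 3 counts in any library. The 6 astrocyte markers summed to between 95.9 and 98.6 CPM in control and between 95.9 and 105 CPM in LPS libraries. Most of this sum was Gja1, a gap junction protein, at 68 ± 0.807 and 77 ± 2.57 CPM, and Aldh1l1, an enzyme of folate metabolism, at 28.3 ± 1.14 and 23.1 ± 1.66 CPM (SD, n = 3), whereas Gfap had at most 10 counts and Aqp4 at most 2. The part of these markers in the level of Cd74 was not tested.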

How the data were processed

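RNA-seq of N9 microglia gave 6 libraries, 3 control and 3 LPS, grouped by the labels. The authors deposited read counts per gene as whole numbers without normalization. The submitters' processing notes name featureCounts 1.5.0-p3 and mm10, while the aligner, annotation release and use of strand are not given in the sources used here. The authors' table of their own comparison (fold changes and p-values) was not used, nor were its 18 columns of values per sample.

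edgeR 4.0.16 under R 4.3.3 tested LPS against control with TMM normalization, filterByExpr, a prior count of 0.125 and no replicate term. P-values were adjusted by Benjamini-Hochberg over 12296 genes. CPM use TMM-scaled totals and RPKM plain totals with the deposited gene lengths. Confidence intervals are at the 95% level of the fitted log2 fold change. The floor was 3 counts in each library. The fits were tested on simulated data. No row lacked a gene name. Symbols turned into dates (March1, March5, March8) were restored by gene ID.

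Positions are those of the deposited table; GENCODE release M21 gives 3 of the 9 members the same start and end. Sequences came from RefSeq, with alignments by Biopython 1.88, and figures were drawn with matplotlib 3.10.9. Members and lists were chosen with earlier results of these data known. The genes named are the members, the listed pathway and marker genes, the 5 genes most like the best counted member, and called genes between the outermost members. Dexi was named after its values were seen. Some listed genes are not reported here by name, though the counts over their lists include them. Alternatives were DESeq2 1.42.0, other filters, normalizations, dispersions and prior counts, a replicate block, protein-coding genes alone, summed paralogs, and each library left out in turn.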

Additional observations from a re-analysis of the deposited data

How the results depend on the processing

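Of the 5 tested members, Cd74 was called under 17 of 18 alternatives, the other 4 were called under none that was run, and no log2 fold change turned its sign. The exception for Cd74 was glmTreat, in which edgeR tests whether a change exceeds 1.5 on the log2 scale. There 0 members were called, 0 of them higher, Cd74 keeping its value of 0.44 with an adjusted p of 1, while 3 other pathway genes were higher and 0 lower. With plain library totals, which were tried only after seeing the data, the median of all genes moved to -0.09, Cd74 stood at 0.35 (adjusted p = 7.65e-06), H2-DMb1 at -0.31 (adjusted p = 0.076), and 13 other pathway genes were lower and 14 higher, against 7 and 19. Under the same setting Nfyc, Usf1, Ctsb, Cd63, Cd82, Csf1r and Gja1 lost their calls. With the replicate block, 1 member was called, 1 higher and 0 lower, with 0 DEG, and 19 other pathway genes were higher and 8 lower. The correlation of deviations between libraries of the same number was 0.114, 0.045 and 0.0224, so the numbers were not taken as pairs. With each library left out, H2-DMa ran from 0.32 to 0.61, H2-Eb1 from 0.06 to 0.48, H2-DMb1 from -0.26 to -0.15 and H2-DMb2 from -0.41 to -0.11. Depth limits H2-Aa, H2-Ab1, H2-Oa and Ciita most, at a mean of at most 2.83 counts. It also limits H2-Eb1, H2-DMb2 and H2-DMa, at means of 21.3, 25.8 and 46 counts. Their log2 fold changes had an SE of 0.33, 0.3 and 0.23, against 0.04 for Cd74. A change of the size seen in Cd74 could therefore be missed in these genes.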

Other observations

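Among the marker lists, Pax5, a B cell transcription factor, had 0 counts in each control library and 18, 11 and 10 counts in LPS replicates 1, 2 and 3. Pax5 passed the filter on low counts only through its LPS libraries. Its call (edgeR adjusted p = 3.22e-04) was lost without LPS replicate 2, and a filter at a mean of 10 counts removed the gene. Ighm, the heavy chain of IgM, had 17, 27 and 16 counts without LPS and 7, 10 and 5 with LPS (log2 fold change -1.30, edgeR adjusted p = 0.028), a call lost in DESeq2 and without control replicate 2, LPS replicate 1 or LPS replicate 3. Ighm passed the same filter through its control libraries, in which it was high.

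Xcr1, a chemokine receptor of cross-presenting dendritic cells, had 51, 29 and 49 counts without LPS and 221, 258 and 221 with LPS (log2 fold change 2.57, edgeR adjusted p = 2.42e-08), a call made in all 17 alternatives other than glmTreat. Of the dendritic cell markers, Zbtb46 and Itgax were also tested and were not called (log2 fold changes -0.15 and 0.19, edgeR adjusted p = 0.66 and 0.659). Of the 15 microglia and macrophage markers, 9 were tested, 1 was higher and 3 were lower, where 18.7% and 15.7% of all genes tested were. Csf1r was the higher one (log2 fold change 0.16, edgeR adjusted p = 0.00517), a call lost with plain library totals (log2 fold change 0.06, adjusted p = 0.234). Trem2, a microglial lipid receptor, fell from 138 ± 2.95 to 96.2 ± 6.61 CPM (SD, n = 3; log2 fold change -0.52, edgeR adjusted p = 1.92e-06). The complement gene C1qb, the DEG of this list, had 11, 15 and 12 counts without LPS and 4, 2 and 5 with LPS (log2 fold change -1.62, edgeR adjusted p = 0.023), a call made in 10 of 17 other settings and lost in DESeq2 and without control replicate 2, LPS replicate 1 or LPS replicate 2. It passed the filter on low counts through its control libraries, and a filter at a mean of 10 counts removed it. C1qa and C1qc, with 0 to 26 counts, were below the filter, and their LPS libraries lay below their control libraries.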
